A study of Mus musculus with 4 samples.

Results

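The genes described are those of 8 proteins that modify or accompany the proteins of the circadian clock: the casein kinases Csnk1d and Csnk1e, the kinase Gsk3b, the F-box proteins Btrc, Fbxw11 and Fbxl21, the deubiquitinase Usp2, and Timeless. Each was given by its symbol, and its value came from the probe sets annotated to that symbol alone. All 8 genes had exactly 1 such probe set, so no choice between probe sets was needed, and none of them shared a probe set with another symbol. They were 8 of 19938 genes with a probe set of 1 symbol, and all 8 were among the 13587 genes bright enough to be tested.

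Expression was measured on 4 microarrays of ventral midbrain from male mice, 2 of wild-type mice (WT) and 2 of mice labelled as a knock-out of Rev-erba (RKO), the gene Nr1d1. Both groups shared the C57BL/6J background, an age of 10 to 15 weeks, more than 10 days of entrainment to 12 h of light per day, and 2 days of constant darkness before the day of collection. The labels call the 2 samples of a group biological replicates, and how many mice gave each sample, how the allele was made and at what hour the tissue was taken are not given in the sources used here. Values are the deposited normalized intensities, and differences are RKO minus WT on the log2 scale, with limma's standard error (SE).

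In the clock, the abundance of the repressor proteins is set largely after transcription. CK1δ and CK1ε, the products of Csnk1d and Csnk1e, phosphorylate the PER proteins, and β-TrCP, made from Btrc and its paralogue Fbxw11, binds phosphorylated PER and directs a ubiquitin ligase of the SCF type to it. FBXL21 is an F-box protein that binds CRY proteins. GSK3β phosphorylates several clock proteins, REV-ERBα among them, and USP2 removes ubiquitin from clock proteins. TIMELESS travels with replication forks together with TIPIN and binds CRY and PER proteins, but its part in the mammalian clock is less settled. The comparison asks whether the transcripts of this machinery differ in the midbrain of mice labelled as a knock-out of Rev-erba.

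Nr1d1 itself was lower in both RKO arrays, with intensities of 2897 and 3099 in WT and 1259 and 1229.7 in RKO (log2 difference -1.27, SE 0.0589, limma adjusted p = 2.44e-06). Over all probe sets the median intensity was 236 to 240.1 on the 4 arrays, below the Nr1d1 signal that remained in RKO. REV-ERBα protein was not measured here. Over the tested genes the median intensity was 559 on 3 arrays and 539.8 on RKO replicate 1, so that array stood apart from the others in this median. By correlation over all probe sets, the 2 RKO arrays were the closest pair (r = 0.996). The 2 WT arrays were the least close (r = 0.99343), below every pair of a WT and an RKO array (0.99348 to 0.99518). Arrays thus did not group by genotype in this measure. The SD of the log2 differences over the tested genes was 0.0929 for the RKO pair, 0.0998 for the WT pair and 0.109 to 0.143 between groups. Of the dopamine neuron markers, which define this tissue, 5 of 9 were higher in RKO and 0 lower (limma adjusted p under 0.05). Aldh1a1 was lower on both RKO arrays and did not pass (-0.10, adjusted p = 0.533). With no filter on dim probe sets, only Th of the 5 calls remained. The summed intensity of the 9 markers was 15993 to 16370.4 in WT and 19642 to 20223 in RKO. Of the leptomeningeal markers, 5 of 7 tested were lower, while Col1a1 (0.13, adjusted p = 0.351) and Col1a2 (0.069, adjusted p = 0.724) were higher on both RKO arrays and did not pass. The sums over all 8 with a probe set, Lum below the filter included, were 4159 to 4242 in WT and 3119 to 3181 in RKO. Lower in RKO were also both markers of the lateral hypothalamus (998 to 1029.5 and 530.3 to 607) and 3 of 5 of the thalamus (7892 to 8023 and 6589.9 to 6775). In the thalamus list Plekhg1 was lower and did not pass (-0.26, adjusted p = 0.0557). Tcf7l2 was level, with overlapping groups (0.0026, adjusted p = 0.992). Among these lower markers, the calls of Dcn, Slc6a13, Hcrt, Rora and Slc17a7 were also lost with no filter on dim probe sets. Those of Ogn, Slc13a4, Islr, Pmch and Prkch remained. The 6 general neuron markers had 0 calls in limma (0 at an unadjusted p under 0.05) and sums of 32041 to 32355 in WT and 32236 to 32596 in RKO. No marker in these lists was at 0 on any array. The lowest value of any probe set was 6.51 to 7.53 per array, so a value above 0 does not show that a cell type was present. The part of these tissue differences in the values below was not tested, and in tissue of mixed cells, fewer cells of a type and less RNA per cell cannot be told apart.

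The promoter sequences of the genes with the largest differences are shown first, with that of Timeless, which held a motif, and those of 2 clock genes for comparison, because REV-ERBα and the activator BMAL1 act through short DNA motifs. RefSeq windows of GRCm38.p6, 250 bases before to 50 after an annotated start, were at hand for 6 of the 8 genes (9 windows, of which Csnk1e had several). Csnk1d and Btrc are named only. Both strands were searched for the E-box CACGTG, for TAGGTCA, the core of the ROR element that REV-ERBα binds, and for the D-box forms TTACGTAA and TTATGTAA. The 250 bases before the start are printed 5′ to 3′ on the strand of the gene, in lower case, with motif matches in capitals. The windows lie at chr9:44084670-44084919 (plus strand) for Usp2, chr13:56522222-56522471 (plus) for Fbxl21, chr10:128237816-128238065 (plus) for Timeless, chr10:85185055-85185304 (minus) for Cry1 and chr11:69098699-69098948 (plus) for Per1. The windows of Usp2, Timeless and Per1 lie inside the annotated span of their genes and that of Fbxl21 reaches into it, so each of these stands for 1 annotated start and the gene may have others.
Usp2: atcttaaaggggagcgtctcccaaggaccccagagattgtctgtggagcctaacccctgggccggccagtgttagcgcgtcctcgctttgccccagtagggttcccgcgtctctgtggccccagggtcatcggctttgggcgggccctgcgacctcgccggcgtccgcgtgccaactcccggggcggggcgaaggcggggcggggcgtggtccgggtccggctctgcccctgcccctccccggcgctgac
Fbxl21: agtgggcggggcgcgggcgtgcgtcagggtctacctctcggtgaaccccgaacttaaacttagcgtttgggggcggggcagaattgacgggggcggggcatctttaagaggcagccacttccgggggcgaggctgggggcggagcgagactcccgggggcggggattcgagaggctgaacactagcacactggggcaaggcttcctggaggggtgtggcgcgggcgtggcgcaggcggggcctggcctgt
Timeless: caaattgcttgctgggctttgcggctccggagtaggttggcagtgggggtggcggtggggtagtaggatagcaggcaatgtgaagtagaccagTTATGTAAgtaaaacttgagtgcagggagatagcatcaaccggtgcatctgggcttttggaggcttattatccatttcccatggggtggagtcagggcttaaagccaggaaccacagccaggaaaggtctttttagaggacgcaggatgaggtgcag
Cry1: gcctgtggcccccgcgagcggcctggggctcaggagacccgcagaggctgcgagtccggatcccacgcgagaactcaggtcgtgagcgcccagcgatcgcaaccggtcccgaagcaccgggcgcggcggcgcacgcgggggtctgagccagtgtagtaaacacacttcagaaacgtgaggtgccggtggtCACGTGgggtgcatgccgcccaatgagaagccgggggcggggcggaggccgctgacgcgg
Per1: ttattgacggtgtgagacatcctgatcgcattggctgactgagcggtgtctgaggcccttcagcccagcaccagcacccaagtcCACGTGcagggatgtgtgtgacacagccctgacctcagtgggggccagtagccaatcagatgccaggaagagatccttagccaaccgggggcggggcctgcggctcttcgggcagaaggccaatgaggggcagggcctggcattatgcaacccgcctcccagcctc

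No window of the 6 genes held the E-box or the ROR element core. Among all 32851 windows of the table, 7.15% held CACGTG and 2.61% held TAGGTCA, so an absence from a few windows is the usual case. The 1 match was TTATGTAA, 157 bases before the start of Timeless, a form found in 0.938% of all windows, and TTACGTAA, in 0.119% of all windows, was found in none of the 6 genes. Of 12 core clock genes with a window, 4 held the E-box (Bhlhe41, Ciart, Cry1 and Per1), and Arntl held TAGGTCA, 30 bases after a start. In the sequences above, the E-box stands 60 bases before the start of Cry1 and 166 before the start of Per1 shown. A further Per1 window, at chr11:69099902-69100151, held none of the motifs. A match is a description of letters, and windows of this length leave out more distant elements.

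None of the 8 transcripts passed the test between RKO and WT. Their differences ran from -0.13 for Fbxl21 to 0.13 for Usp2, and the other 6 lay between -0.066 and 0.041. In limma 0 of the 8 had an adjusted p under 0.05, against 1.6% of all tested genes in either direction (0.64% higher and 0.964% lower in RKO), and an unadjusted p under 0.05 was reached by 2 of the 8, against 12.8%. At that background 8 genes would give few calls or none, so the count of 0 does not set them apart. The adjusted p ran from 0.370 for Usp2 to 0.979 for Csnk1e.

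In 4 of the 8 genes the values of the groups did not overlap, with RKO higher for Usp2 and Btrc and lower for Fbxl21 and Fbxw11. Such separation was seen in 41.8% of the tested genes, with 17.2% higher and 24.6% lower. The median difference of the 8 genes was -0.014, next to -0.012 over all tested genes, and 5 of them differed by less than the median size over all genes, 0.052. The smallest difference that was called in any gene was 0.26, and the SE of the 8 genes was 0.0546 to 0.0586.

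**Figure D1:**
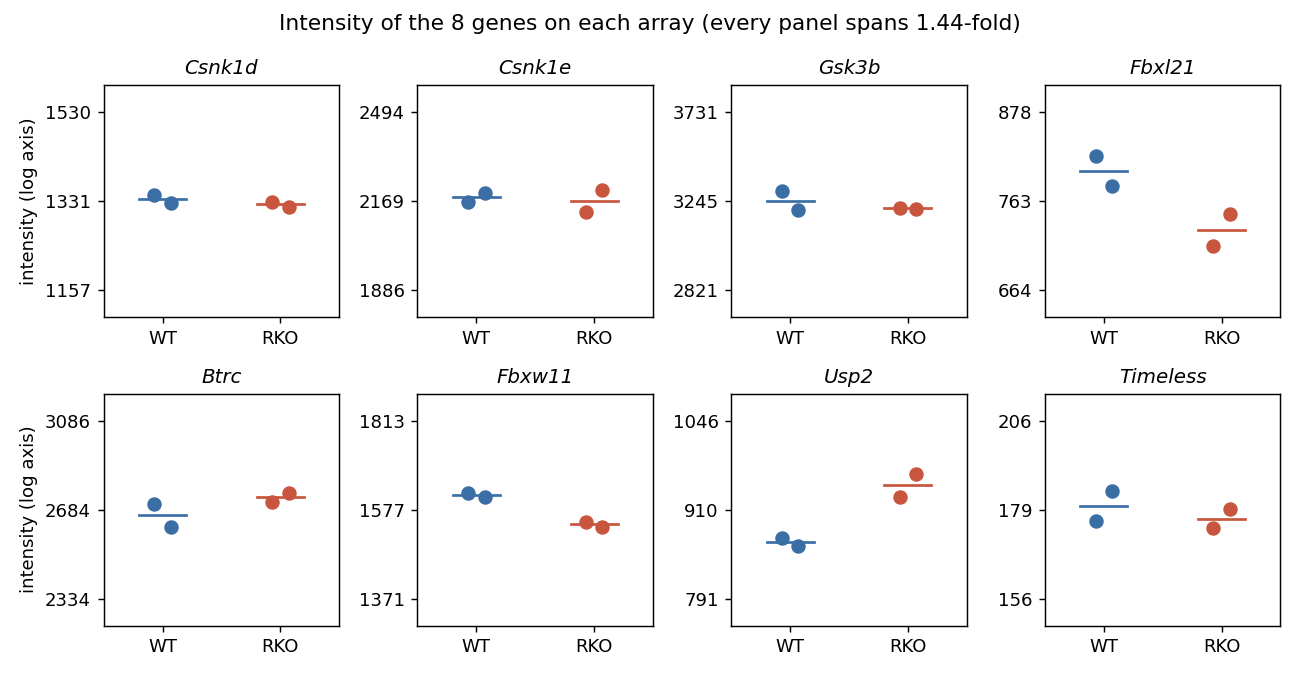
Normalized intensity (log axis) of each of the 8 genes on the 2 WT (blue) and 2 RKO (red) arrays, with each group's geometric mean as a line; every panel covers the same fold range. The groups are apart in Fbxl21, Fbxw11, Usp2 and, narrowly, Btrc, and overlap in the other 4 genes.

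The differences of the 3 kinases were small beside their errors, and their groups overlapped. Csnk1d, which encodes CK1δ, had intensities of 1343 and 1325 in WT and 1329 and 1318 in RKO. The RKO value of replicate 1 lay between the WT values, and the difference was -0.012 (SE 0.0547, adjusted p = 0.966), with a 95% interval of -0.13 to 0.11. That interval runs from 0.912-fold to 1.08-fold. Csnk1e, which encodes CK1ε, had intensities of 2164 and 2197 in WT and 2132 and 2206 in RKO. Both WT values lay inside the range of the RKO values, the difference was -0.0080 (SE 0.0557, adjusted p = 0.979), and the interval was -0.13 to 0.11. Gsk3b had intensities of 3294 and 3197 in WT and 3207 and 3206 in RKO. Its RKO arrays, alike to within 0.00016 on the log2 scale, both lay between the WT values (difference -0.017, SE 0.0553, adjusted p = 0.949, interval -0.14 to 0.10). The intervals of the 3 kinases leave room for a level up to 1.08-fold higher or 1.10-fold lower in RKO, and differences of that size were called in no tested gene. The sign of all 3 kinase differences turned when the arrays were put on 1 scale by quantile normalization, to 0.018, 0.010 and 0.010 for Csnk1d, Csnk1e and Gsk3b.

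The F-box proteins, the parts of SCF ligases that choose the substrate, showed small differences in both directions. Fbxl21 had intensities of 819 and 781 in WT and 712 and 748 in RKO. Both RKO values were below both WT values, with a gap of 0.063 on the log2 scale between the nearest arrays of the groups, slightly less than the distance within a group, 0.068 in WT and 0.072 in RKO. The difference was -0.13 (SE 0.0586, unadjusted p = 0.0451, adjusted p = 0.373), or 1.10-fold lower. The interval of that fold was 1.00 to 1.20, and 12.1% of all tested genes had a smaller p.

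Fbxw11, the second β-TrCP gene, had intensities of 1619 and 1608 in WT and 1547 and 1535 in RKO. The 2 arrays of each group were close to each other, 0.010 apart in WT and 0.011 in RKO, and the nearest arrays of the groups were 0.055 apart. Judged with the spread that limma shares across genes, the difference of -0.066 (SE 0.0546, adjusted p = 0.712, interval -0.19 to 0.055) did not pass. Btrc had intensities of 2706 and 2614 in WT and 2717 and 2756 in RKO. Its RKO arrays were higher than both WT arrays, but by only 0.0055 between the nearest, less than the 0.050 between the WT arrays (difference 0.041, SE 0.0557, adjusted p = 0.860, interval -0.082 to 0.16).

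Usp2, which encodes the deubiquitinase, had intensities of 871 and 859.6 in WT and 928 and 963 in RKO. Both RKO values exceeded both WT values, and the nearest arrays of the groups were 0.091 apart, more than the distance within a group, 0.018 in WT and 0.054 in RKO. The difference was 0.13 (SE 0.0559, unadjusted p = 0.0442, adjusted p = 0.370), or 1.09-fold higher with an interval of 1.00-fold to 1.19-fold. At this adjusted p Usp2 was not called, and 11.9% of all tested genes had a smaller p. The sign of the Usp2 difference was positive under each of 13 other settings, with values of 0.10 to 0.15. With 1 probe set and groups that did not overlap, only the settings that rescale the arrays could have turned this sign. The probe set gives 1 value for the gene and does not separate its transcripts.

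Timeless was dim, with a mean intensity at the 41.9th percentile of all probe sets, just above the 40th percentile that a gene had to reach. Its intensities were 176 and 184 in WT and 174 and 179 in RKO. The groups overlapped, and the difference was -0.028 (SE 0.0571, adjusted p = 0.911, interval -0.15 to 0.098). Its partner Tipin, also dim at 247 and 231 in WT and 227 and 241 in RKO, overlapped as well (-0.032, SE 0.0609, adjusted p = 0.903). At such intensities part of the signal can be background, so a change of either gene may be understated. Of 3 markers of dividing cells with a probe set, Mki67, Top2a and Cdk1, all were below the filter, and their summed intensity was 265 to 307 in WT and 281 to 314 in RKO.

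Closely related genes were also compared within each array, as the log2 ratio of their intensities, which removes a shift shared by the whole array. Btrc over Fbxw11 stood at 0.74 and 0.70 on the WT arrays and at 0.81 and 0.84 on the RKO arrays. The ratio was higher on both RKO arrays, by 0.11 in the mean. For Csnk1d over Csnk1e the WT arrays gave -0.69 and -0.73 and the RKO arrays -0.68 and -0.74, a difference of -0.0036 with overlapping groups. Gsk3b over Gsk3a, the other GSK3 gene, stood at 0.016 and -0.11 on the WT arrays and at -0.071 and -0.076 on the RKO arrays, a difference of -0.028, also overlapping. The exact two-sided permutation test over the 4 arrays gave p = 0.333 for Btrc over Fbxw11, which is the smallest that this design allows, and 1 for each of the other pairs (all 1 after Benjamini-Hochberg adjustment over 3 pairs). This test could not have called any of the ratios, so it does not bear on whether they differ. The levels in a ratio are not comparable between genes, because probe sets differ in brightness, and only its difference between groups is meaningful.

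The core clock genes, several of which encode the substrates of these enzymes, held calls. Of 13 tested, 5 were higher and Nr1d1, the gene knocked out, was lower (limma adjusted p under 0.05), and an unadjusted p under 0.05 was reached by 11 of the 13. Earlier results of these data had shown this pattern, so it serves here as a scale for the 8 genes and not as new support. Cry1, whose protein FBXL21 binds, had intensities of 291 and 300.2 in WT and 357 and 387 in RKO (0.33, SE 0.0606, adjusted p = 0.0208). Per1, whose protein is phosphorylated by CK1, had 590.4 and 596 in WT and 695 and 738 in RKO (0.27, SE 0.0577, adjusted p = 0.0439). The groups did not overlap in either gene. The other calls were Arntl, which encodes BMAL1 (0.47), the transcription factor Dbp (0.41) and the repressor Ciart (0.40). Per2, whose protein is also a substrate of CK1, had 391 and 401 in WT and 462 and 435 in RKO and did not pass (0.18, adjusted p = 0.198), nor did Cry2 (0.24, adjusted p = 0.0713) or Per3 (0.24, adjusted p = 0.0752). The 95% intervals of Arntl (0.34 to 0.60) and Dbp (0.28 to 0.53) lay above that of Usp2 (0.0040 to 0.25). Those of Per1 (0.14 to 0.40), Cry1 (0.20 to 0.46) and Ciart (0.23 to 0.56) overlapped it. The differences between genes were not tested. With no filter on dim probe sets none of the 5 rises passed in limma, and without RKO replicate 1 or without RKO replicate 2 only Arntl of the 5 did. Per1 also missed without either of the WT arrays, Cry1 without WT replicate 1 and Ciart without WT replicate 2, and Per1 and Ciart missed with centring on the tested genes, a setting added after seeing the data. Over all settings the adjusted p reached 0.264 for Per1, 0.200 for Cry1, 0.273 for Ciart, 0.100 for Dbp and 0.0744 for Arntl.

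**Figure D2:**
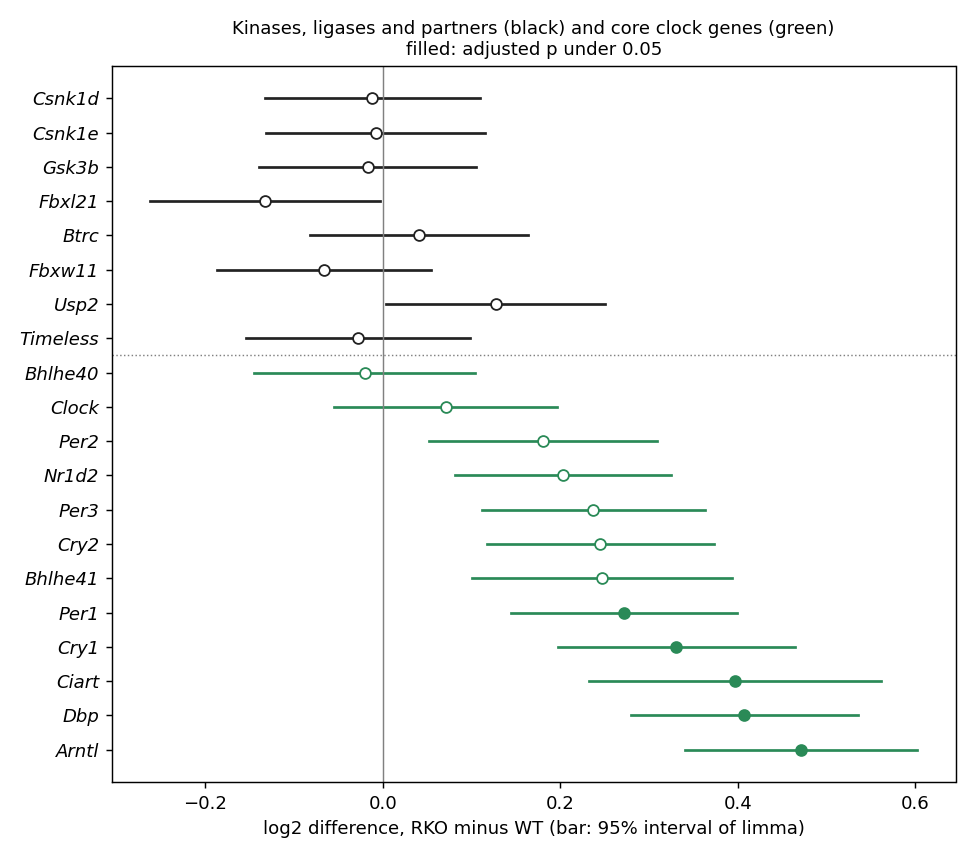
Log2 difference between RKO and WT (x axis) with limma's 95% interval for the 8 genes (black) and 12 core clock genes other than Nr1d1 (green); filled points had an adjusted p under 0.05. The intervals of Usp2 and Fbxl21 just miss 0 on opposite sides, none of the 8 points is filled, and 5 of the 12 clock genes are.

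The wider machinery also held no call. The 9 lists of other kinases, phosphatases, ligase parts, deubiquitinases and partners held 99 tested genes, of which 0 were called in limma, 5 had an unadjusted p under 0.05 and 32 (32.3%) had groups that did not overlap, with a median difference of -0.014. Over all tested genes these shares were 1.6% called, 12.8% at that unadjusted p and 41.8% without overlap, so few calls would arise in a set of this size at the background, and the count of 0 does not set it apart. Of 9 other members of the CK1 and CK2 family 0 were called (0 at an unadjusted p under 0.05, median -0.030). The lowest p were those of the CK2 catalytic subunits Csnk2a2 (-0.083) and Csnk2a1 (-0.059) and of Csnk1g1 (-0.050). Of 13 other kinases that act on clock proteins 0 were called (0 at that unadjusted p, median 0.014), with Prkaa2, a catalytic subunit of AMPK (0.057), Mapk10 (-0.056) and Cdk5 (-0.049) first by p. Of 11 phosphatase genes 0 were called (0 at that p, median -0.012). Here Ppp2r5d, a regulatory subunit of phosphatase 2A, had 1609.95 and 1591 in WT and 1483 and 1477 in RKO (-0.11, adjusted p = 0.431), Ppp2cb, a catalytic subunit, stood at -0.11, and Ppp4c at -0.095.

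Among the ubiquitin genes, 10 parts of the SCF core and of the neddylation pathway that activates it had 0 calls in limma (1 at an unadjusted p under 0.05) and a median of -0.048. The gene at that p was Nae1, a subunit of the enzyme that activates NEDD8. It had intensities of 1410.2 and 1337 in WT and 1196 and 1231 in RKO. Both RKO values were well below both WT values (-0.18, SE 0.0577, adjusted p = 0.199), and it passed only with an intensity trend in the variance (adjusted p = 0.0355). Nedd8 itself stood at -0.080 and the ubiquitin-conjugating enzyme Ube2r2 at -0.080. Of 13 other F-box proteins 0 were called (1 at that p, median -0.023). That gene was Skp2, with 349 and 378 in WT and 398 and 400.4 in RKO (0.14, SE 0.0602, adjusted p = 0.369), followed by Fbxw7, which targets REV-ERBα (-0.12), and Fbxw5 (-0.056). Of 14 other ligase genes 0 were called (0 at that p, median -0.0081), with Traf2 (0.089), Cop1 (-0.096) and Cul4b (-0.077) first, and Huwe1 and Siah2, which act on REV-ERBα, stood at -0.0045 and 0.074. Of 11 other deubiquitinase genes 0 were called (0 at that p, median -0.011), with Uchl1 (-0.065), Otud7b (-0.064) and Usp28 (-0.046) first.

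The partners of TIMELESS and the replication checkpoint had 0 calls among 9 tested genes in limma (2 at an unadjusted p under 0.05, median -0.032), and 4 more were below the filter. The 2 went in opposite directions. Mcm2, a subunit of the replicative helicase, had 272 and 285 in WT and 307 and 303 in RKO (0.13, SE 0.0568, adjusted p = 0.358). Atr, the checkpoint kinase, had 389 and 403 in WT and 352 and 373 in RKO (-0.13, SE 0.0584, adjusted p = 0.380). Rad17 stood at -0.11. Of 11 genes around the β-catenin destruction complex, in which GSK3β and β-TrCP also act, 0 were called (1 at that p, median 0.011). Axin2, a target and brake of β-catenin signalling, had 407 and 444 in WT and 356 and 398 in RKO (-0.17, SE 0.0700, adjusted p = 0.317). Its groups did not overlap, but the nearest arrays were closer to each other than the 2 arrays of either group. Apc2 stood at -0.089 and Amer1 at 0.060.

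**Figure D3:**
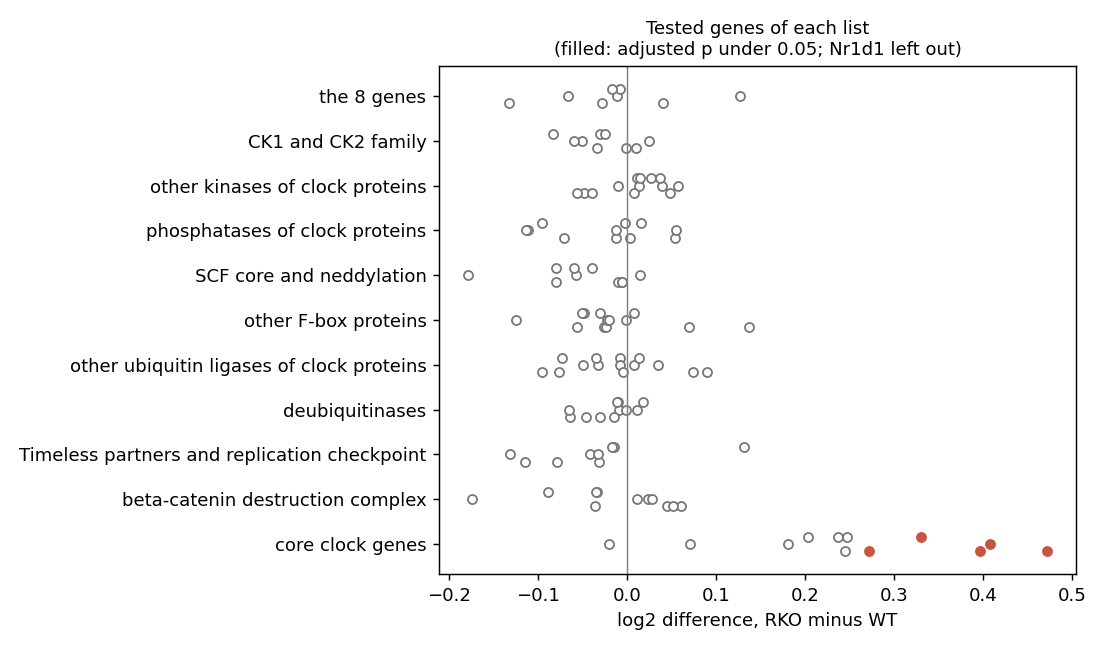
Log2 difference between RKO and WT (x axis) of each tested gene other than Nr1d1, 1 row per list, with genes of an adjusted p under 0.05 filled; the vertical offset within a row only separates points. The 8 genes and the 9 lists of the machinery lie between -0.18 and 0.14 with no filled point, while 5 of the 12 core clock genes plotted are filled.

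**Figure D4:**
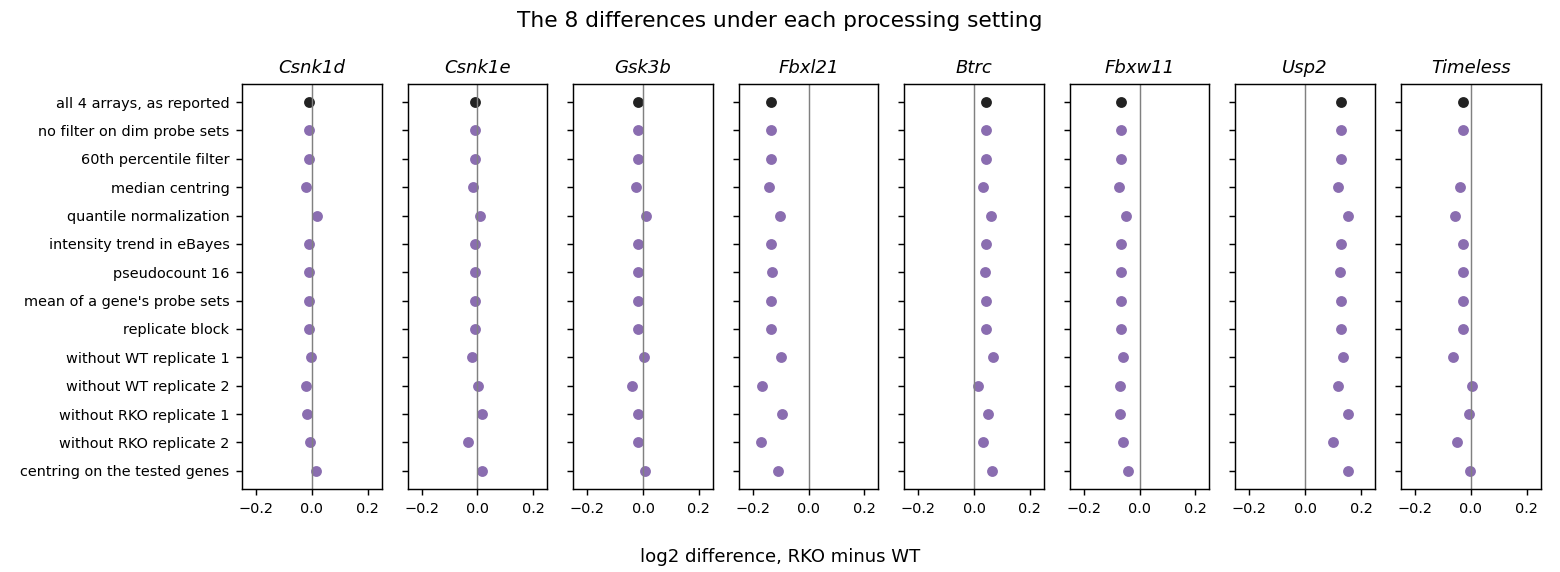
Log2 difference between RKO and WT (x axis) of the 8 genes with all arrays as reported (black) and under 13 other settings (purple), 1 row per setting. Fbxl21, Fbxw11, Btrc and Usp2 keep their sign in every row shown, and Csnk1d, Csnk1e, Gsk3b and Timeless, which has no point under the 60th percentile filter, cross 0 in some. The genes that keep their sign have groups that do not overlap, so only the rows with rescaled arrays could have turned it.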

How the data were processed

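Ventral midbrain RNA of 2 WT and 2 RKO samples was hybridised to Affymetrix arrays from 1 µg of total RNA, per the labels' protocols. The deposited values are normalized intensities, linear rather than logged, of 35556 probe sets on each array. Per the submitters' processing notes the tools were GCOS and RMA; settings and the genome build of the annotation are not given there. The table held 0 columns of other samples. The arrays were not fully alike in distribution as deposited (median of the tested genes 539.8 to 559).

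The log2 of each intensity was taken here, without a pseudocount. Symbols came from the platform annotation: 21789 probe sets had 1 symbol, 1621 several and 12146 none, and only the first kind was used. Per gene the probe set of highest mean was taken, and genes whose mean was under the 40th percentile (intensity 167) were left out, 6351 of 19938. Groups were compared by limma 3.58.1 (lmFit, eBayes) under R 4.3.3, 2 arrays against 2 with no covariate, two-sided, with Benjamini-Hochberg adjustment over the 13587 tested genes and a threshold of 0.05. Residual degrees of freedom were 2, to which the prior added 8.73. With these group sizes the lowest p of an exact permutation test is 0.333. The number of arrays limits the precision, and the p-values measure only the spread between these samples. The script was tested on simulated data.

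The 8 genes, the lists and the tests were chosen with earlier results of these data known. Named genes were the 8 genes, Nr1d1, Gsk3a, and per list each gene called or otherwise the 3 of lowest p; Tipin, Huwe1, Siah2, Per2, Per3 and Cry2 were named in addition, after their values were seen. Core clock genes stand under a list of clock substrates and regulators. Other lists were markers of astrocytes (2 of 6 lower, 4 at an unadjusted p under 0.05, with Gja1 at 0.22 the other way), oligodendrocytes (1 of 5 lower, 2 at that p), microglia (0 of 5 called in limma, 0 at an unadjusted p under 0.05), endothelium (0 of 5, 2 at that p) and choroid plexus (0 of 5, 0 at that p). The protein identity of paralogues was planned and not run, and 1 planned comparison is not reported here. Promoter windows were in the orientation of the gene in all 581 overlapping minus-strand pairs checked. Alternatives were other filters, scalings, variance models, a pseudocount, the mean of probe sets, a replicate block and leaving out each array.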

Additional observations from a re-analysis of the deposited data

How the results depend on the processing

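None of the 8 genes was called in limma under any of the 14 other settings, including those added after seeing the data. Fbxl21 (-0.17 to -0.097), Fbxw11 (-0.074 to -0.041), Btrc (0.016 to 0.066) and Usp2 (0.10 to 0.15) kept their sign under all 13 settings that give values per gene, with a lowest adjusted p of 0.223, for Usp2. The groups of these genes did not overlap and each had 1 probe set, so only the scalings could have turned their signs. Their constancy thus adds little to the separation already described. Values near 0 turned. Quantile normalization gave 0.018 for Csnk1d, 0.010 for Csnk1e, 0.010 for Gsk3b and 0.0075 for the ratio of Csnk1d over Csnk1e. Centring on the tested genes, added after seeing the data, gave 0.013, 0.017 and 0.0076 for the same 3 kinases. Leaving out each array gave -0.033 to 0.017 for Csnk1e (0.0028 without WT replicate 2, 0.017 without RKO replicate 1), -0.039 to 0.0044 for Gsk3b, -0.062 to 0.0054 for Timeless, -0.034 to 0.027 for Csnk1d over Csnk1e (0.017 without WT replicate 1) and -0.090 to 0.033 for Gsk3b over Gsk3a, with -0.029 to 0.051 for Gsk3a (-0.029 without WT replicate 1) and -0.16 to 0.063 for Usp28 (0.063 without RKO replicate 1). The 60th percentile filter left Timeless out. Some uncalled values rested on 1 array: without WT replicate 1 Ube2r2 stood at -0.0016, Cop1 at -0.010 and Rad17 at -0.029, and without RKO replicate 1 Apc2 stood at -0.023.

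Over all tested genes the count of 218 became 31 with no filter, 455 with median centring, 499 with an intensity trend, 106 with centring on the tested genes and 73 to 293 with an array left out (73 without RKO replicate 1, 99 without RKO replicate 2). The 6 calls in the lists, core clock genes included, became 1 with no filter, 11 with the trend and 2 to 5 with an array left out. With the replicate number as a block there were 259 calls over all genes, 6 in the lists and 0 among the 8 genes. Same-numbered arrays did not deviate together (correlation -0.11 over genes), and nothing in the labels pairs them. Pairing the numbers crosswise, added after seeing the data, gave 696 calls over all genes, 10 in the lists and 0 among the 8 genes. The cause of these shifts was not tested. With 2 arrays per group, differences of the size seen in the 8 genes are below the smallest that was called, and values near the filter, as for Timeless, carry the least signal over background.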

Other observations

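Among all genes with an F-box symbol (Fbxl, Fbxo or Fbxw and a number), picked by symbol after the first results were seen, 52 were tested and 0 were called in limma, with 3 at an unadjusted p under 0.05 (5.77%, against 12.8% of all tested genes) and a median difference of -0.017. Fbxl21 ranked 3 of the 52 by p, after Fbxo16 (-0.21, adjusted p = 0.0925) and Fbxw10 (0.18, adjusted p = 0.193). Of 44 tested ubiquitin-specific proteases, picked in the same way, 0 were called (3 at that p, 6.82%), with a median of -0.019. Usp2 ranked 3 by p, after Usp18, an interferon-induced protease that removes ISG15 (-0.27, SE 0.0587, adjusted p = 0.0534), and Usp27x (0.14, adjusted p = 0.306). The 8 tested cullins had 0 calls (0 at that p), and of 30 genes of ubiquitin-conjugating enzymes 0 were called (3 at that p: Ube2w at -0.26, Ube2l6 at -0.15 and Ube2e3 at -0.16).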
